A study of Danio rerio with 4 samples.

Results

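The genes described here are those of myelin and of the glial cells that make it, measured in whole eyes of adult zebrafish (Danio rerio). The list held 10 gene symbols: the myelin membrane genes mbpa, mbpb, mpz, plp1a, plp1b, zwi, cldnk and mag, and the transcription factor genes olig2 and sox10. A gene was taken from probe sets to which the array annotation gives a single gene symbol. That symbol was replaced by the RefSeq symbol of the same gene ID where there is one. Of several such probe sets of a gene, the one with the highest mean over the arrays was used. Of the 10 symbols, 7 have a probe set, 1 each, among 19260 genes named in the same way. The other 3, mpz, plp1a and plp1b, are not named in that annotation and were not analysed here. The list was drawn up with results of these arrays known, and its members were chosen by function with the difference of mbpa between these arrays in view; that difference is therefore a description and supports nothing else.

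There were 4 Affymetrix arrays, 1 for each genotype: wildtype, homozygous eys-/-, homozygous lrp5-/-, and eys+/-; lrp5+/-, which is heterozygous at both loci and is called the double heterozygote. All fish were 3.5 months old, of mixed sex, and kept in a cycle of 14 hours of light and 10 hours of dark at 28.5°C. The mutant alleles, the number of fish behind an array and how much optic nerve or muscle was left on the eyes are not given in the sources used here. With 1 array per genotype there are no replicates, so no error between fish can be given and no p-value was computed.

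Myelin is the compacted membrane that oligodendrocytes wrap around axons in the brain and optic nerve, and Schwann cells around axons of peripheral nerves. Myelin basic protein holds the cytoplasmic faces of that membrane together, while proteolipid protein and, in fish, myelin protein zero hold its outer faces. In an eye sample, myelin RNA can come from oligodendrocytes of the optic nerve and from Schwann cells of nerves to the eye and its muscles. The factor olig2 directs the formation of oligodendrocytes, and sox10 is needed for the differentiation of oligodendrocytes, Schwann cells and neural crest pigment cells.

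The labelled tissue was checked first. Of 23 photoreceptor and lens genes, 20 have a probe set and 19 were measured, and the mean log2 signal of those 19 lay between 11.19 and 11.26 on the 4 arrays. Photoreceptor genes such as the rod transducin gnat1 (12.43 to 12.56) and the cone transducin gnat2 (12.44 to 12.56) read near the top of the scale. The mutated gene eys has 0 probe sets with its name. The mutated gene lrp5 ranged from 7.39 in wildtype down to 6.92 in the double heterozygote, with 7.27 in eys-/- and 7.17 in lrp5-/-, and since the place of its probe set relative to the mutation is unknown, these values cannot check the genotypes.

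To be taken as measured in a pair of arrays, a gene had to reach a log2 signal of 6.57 on at least 1 of them. This level is the median of all values of probe sets with 1 gene symbol. A 2-fold difference, 1 on the log2 scale, was needed for a call. Of the 7 genes, 6 reached that level on all 4 arrays and olig2 on none. As a yardstick, the robust SD of log2 differences of all measured genes (the scaled median absolute deviation) was 0.20 for eys-/- against wildtype, 0.20 for lrp5-/- against wildtype and 0.23 for the double heterozygote against wildtype. This yardstick mixes the differences between genes of 1 pair of arrays and is not an error between fish. In whole eyes, fewer glial cells and less of a transcript per cell cannot be told apart.

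The 2 genes with the largest differences between arrays were mbpa and zwi, and they differed in the same order. The gene mbpa, which encodes myelin basic protein, read 10.17 in wildtype, 9.44 in lrp5-/-, 9.07 in the double heterozygote and 8.58 in eys-/-. Wildtype was thus highest and eys-/- lowest, with a range of 1.59 on the log2 scale. The log2 difference from wildtype was -1.59 in eys-/-, a 3.0-fold lower signal, and that difference ranked 7 from the lowest among 10435 measured genes. In the double heterozygote the difference was -1.10, a 2.15-fold lower signal, ranked 35 from the lowest of 10434. It was -0.73 in lrp5-/-, a 1.66-fold lower signal, which did not reach 2-fold and ranked 63 from the lowest of 10426.

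The gene zwi encodes Zwilling-A and Zwilling-B, myelin proteins described in bony fish. It read 7.61 in wildtype, 7.18 in lrp5-/-, 7.02 in the double heterozygote and 6.78 in eys-/-, with the arrays in the same order as for mbpa. Its log2 differences from wildtype were -0.83 for eys-/-, -0.42 for lrp5-/- and -0.59 for the double heterozygote. These are 1.78-fold, 1.34-fold and 1.5-fold lower signals, none of which reached 2-fold. They ranked 52, 340 and 232 from the lowest of the measured genes in their comparisons. Each was smaller than that of mbpa in the same comparison. The robust SD over genes within 0.5 log2 units of the level of zwi was 0.19 for eys-/-, 0.19 for lrp5-/- and 0.21 for the double heterozygote, and over genes near the level of mbpa it was 0.19, 0.20 and 0.24.

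**Figure D1:**
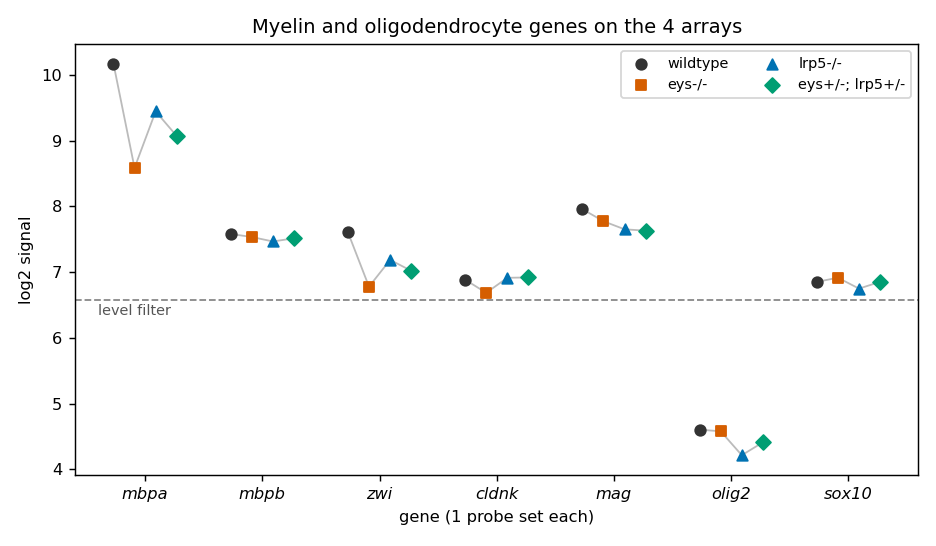
Log2 signal (vertical axis) of the 7 genes (horizontal axis) on each of the 4 arrays, 1 point per array, with grey lines joining the points of a gene and a dashed line at the level filter of 6.57. For mbpa and zwi wildtype is the highest point and eys-/- the lowest, while the points of mbpb span 0.11 and those of sox10 0.17; heights of different genes are not comparable, because each probe set has its own response.

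The paralog of mbpa, mbpb, also encodes a myelin basic protein and did not share this difference. It read 7.58 in wildtype, 7.46 in lrp5-/-, 7.51 in the double heterozygote and 7.53 in eys-/-. The arrays lay within 0.11 log2 units of each other, less than the robust SD of any pair of arrays. Between wildtype and eys-/- the difference of mbpa was lower than that of mbpb by a log2 value of -1.54, and for the double heterozygote by -1.04. Whether probes of either gene also bind transcripts of the other is not known here.

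Among the other membrane genes, mag encodes myelin-associated glycoprotein, a sialic acid-binding receptor on the myelin surface that faces the axon. It read 7.96 in wildtype, 7.65 in lrp5-/-, 7.63 in the double heterozygote and 7.77 in eys-/-. Wildtype was again highest, but the lowest array was the double heterozygote, at a log2 difference of -0.33 from wildtype, against -0.31 in lrp5-/- and -0.18 in eys-/-. In eys-/- this is under 1 robust SD, and in the others it is 1 to 2 times as large. The gene cldnk encodes a claudin of zebrafish myelin. Its signal was 6.88 in wildtype, 6.91 in lrp5-/-, 6.92 in the double heterozygote and 6.68 in eys-/-. Only eys-/- stood off from the other 3 arrays of cldnk, at a log2 difference from wildtype of -0.20, about 1 robust SD.

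Of the 2 transcription factor genes, sox10 did not follow mbpa, and olig2 read too low to be compared. The signal of sox10 was 6.85 in wildtype, 6.75 in lrp5-/-, 6.85 in the double heterozygote and 6.91 in eys-/-, so eys-/-, which was lowest for mbpa, was highest for sox10. All differences of sox10 between arrays were within 0.17 log2 units. The probe set of olig2 read 4.60 in wildtype, 4.22 in lrp5-/-, 4.41 in the double heterozygote and 4.58 in eys-/-. These values lie below the median of all probe sets of each array, 5.03 to 5.06, and are not shown to be above background, so no difference is read from them.

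Of the 6 measured genes, 1 was 2-fold or more lower than wildtype in eys-/- (mbpa), where 0.307% of all measured genes were. In the double heterozygote 1 of 6 was, again mbpa, beside 0.489% of all genes, and in lrp5-/- 0 of 6 beside 0.278%. None was 2-fold higher in any of these comparisons, where 0.326%, 1.23% and 0.393% of all genes were in eys-/-, the double heterozygote and lrp5-/-. At 1.5-fold, mbpa and zwi were lower in eys-/- (2 of 6, beside 1.7% of all genes) and in the double heterozygote (2 of 6, beside 2.25%). There zwi lay just past that limit. In lrp5-/- only mbpa was (1 of 6, beside 1.19%). Because mbpa was among the largest differences already known when the list was made, nothing is read from these shares. The median log2 difference of the 6 genes was -0.19 for eys-/-, -0.21 for lrp5-/- and -0.20 for the double heterozygote, where the medians over all measured genes were -0.014, -1e-04 and 0.0016. Of the 6, 5, 5 and 4 were below wildtype in eys-/-, lrp5-/- and the double heterozygote. Of all measured genes, 49.7% to 52.8% were below wildtype in these comparisons. Nothing is read from these counts either, because the list was made with mbpa in view.

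**Figure D2:**
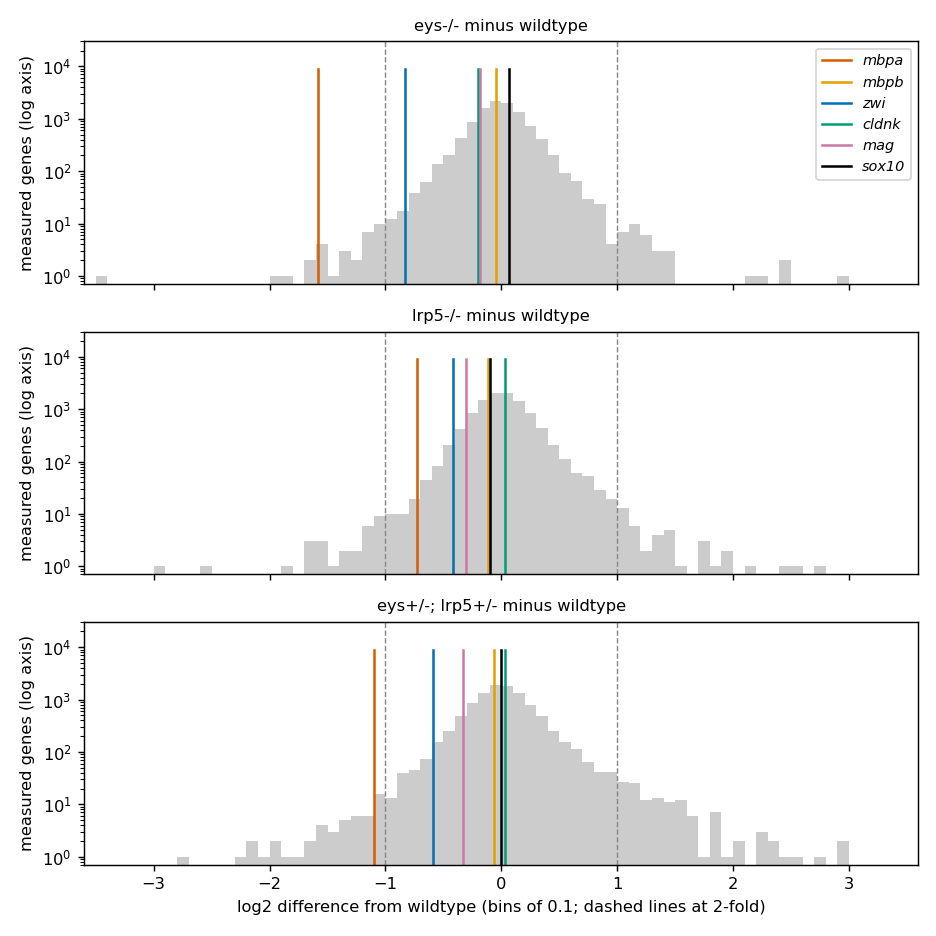
Number of measured genes (vertical log axis) by log2 difference from wildtype (horizontal axis, bins of 0.1) for eys-/-, lrp5-/- and the double heterozygote from top to bottom, with coloured lines at the 6 measured myelin and glial genes and dashed lines at 2-fold. In all 3 panels mbpa is the leftmost line and zwi the next, and mbpa lies past the 2-fold line in eys-/- (-1.59) and the double heterozygote (-1.10).

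These 3 comparisons share the wildtype array, so a high reading there lowers all of them at once. When wildtype was compared with the mean of the remaining 3 arrays, its mbpa was higher by a log2 value of 1.14 (2.2-fold), ranked 9 from the highest of 10347 measured genes, of which 0.126% were 2-fold or more higher. For zwi the same value was 0.61, ranked 65 from the highest. The eys-/- array was lower than the mean of the other 3 by -0.98 for mbpa and by -0.49 for zwi. On that scale mbpa no longer reached 2-fold in eys-/-, where 0.597% of all genes were 2-fold lower, and in the double heterozygote, where 0.203% were, it was at -0.33. The median of the 6 genes was then -0.10 for eys-/-, -0.013 for lrp5-/- and -0.088 for the double heterozygote.

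The mutant arrays were also set against each other, without wildtype. The signal of mbpa was 1.81-fold higher in lrp5-/- than in eys-/- (log2 difference 0.86, ranked 139 from the highest of 10446 measured genes), where the robust SD was 0.22. It was higher in the double heterozygote than in eys-/- by 0.48, and lower in the double heterozygote than in lrp5-/- by a log2 difference of -0.37, with robust SDs of 0.23 and 0.17. For zwi the same differences were 0.41, 0.24 and -0.17. The double heterozygote and its neighbours in the order thus differed for zwi by about 1 robust SD. In these 3 comparisons 0 of the 6 genes were 2-fold higher, beside 0.919%, 1.48% and 0.3% of all measured genes, and 0 were 2-fold lower, beside 0.507%, 0.699% and 0.29%.

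The order wildtype, lrp5-/-, double heterozygote, eys-/- from highest to lowest was taken from mbpa, which therefore has it by definition. Of the 6 genes, zwi was the only other with this order. It was found for 4.36% of the 10743 genes that reached the level filter on any array. Wildtype was the highest array for 4 of the 6 (mbpa, mbpb, zwi and mag) and for 25.9% of all such genes. The eys-/- array was the lowest for 3 of the 6 (mbpa, zwi and cldnk) and for 29.8% of all. None of the 6 was lowest in wildtype, as 23.6% of all genes were. An order says nothing of size: that of mbpb rests on differences within the spread.

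Genes with the pattern most like that of mbpa over the 4 arrays were sought among 381 genes. These reached the level filter on at least 1 array and had a range of at least 1 log2 unit. Likeness was the root mean square difference of log2 signals, each gene centred on its own mean. The closest with a gene name were stxbp6l at 0.12, p4ha1b at 0.14, ociad2 at 0.20, bbc3 at 0.21 and macroh2a2 at 0.24, after 2 clone-style names were skipped. The gene p4ha1b encodes a collagen prolyl hydroxylase subunit, bbc3 the pro-apoptotic protein Puma and macroh2a2 a histone variant. The log2 difference of stxbp6l from wildtype was -1.30 for eys-/-, -0.70 for lrp5-/- and -1.07 for the double heterozygote, and that of p4ha1b was -1.34, -0.77 and -0.83. None of the 5 is a myelin gene of the lists used here. At 0.28 from mbpa, zwi was closer than the other 5 listed genes, whose distances ran from 0.51 for mag to 0.61 for sox10. With a range of 0.83, zwi was not among the 381 genes searched, so its distance has no rank. The distance of a nearly flat gene, such as mbpb at 0.57, is set mostly by the spread of mbpa itself. With 4 arrays many genes can share a pattern, and the closeness is a description only.

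**Figure D3:**
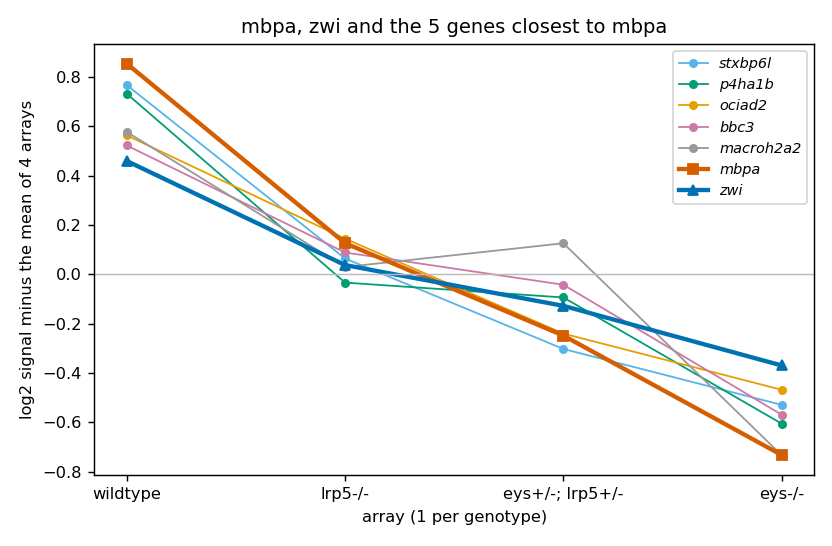
Log2 signal minus the mean of the 4 arrays (vertical axis) for mbpa, zwi and the 5 named genes closest to mbpa, with the arrays on the horizontal axis sorted by the level of mbpa. Wildtype is the highest point of every line and eys-/- the lowest, and macroh2a2 is higher in the double heterozygote than in lrp5-/-.

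Other genes linked to myelin were taken from a list of 35, of which 23 have a probe set. Not all of them encode myelin membrane proteins. Whether they are specific to myelin in an eye was not tested, so their medians do not measure myelin content. In eys-/- 19 were measured, and 0 were 2-fold higher or lower, with a median log2 difference of 5e-04 and a range from -0.30 for cldn11a to 0.33 for mtmr2, a lipid phosphatase mutated in a human demyelinating neuropathy. In the double heterozygote 0 of 18 passed 2-fold, with a median of -0.029. Against wildtype, 0.278% to 0.489% of all measured genes were 2-fold lower and 0.326% to 1.23% higher. Counts of 0 in lists this short, here and below, therefore do not show that a list was unchanged. In lrp5-/- 1 of 17 was 2-fold lower, beside 0.278% of all measured genes, and the median was -0.067. That gene, cldn11b, is related to the claudin of oligodendrocyte tight junctions in mammals. It read 7.28 in wildtype, 6.16 in lrp5-/-, 7.21 in the double heterozygote and 7.44 in eys-/-, so the lrp5-/- array alone was low, by a log2 difference of -1.12. The lrp5-/- value of cldn11b lies below the level filter and is not shown to be above background. Its relative cldn11a differed by -0.30, -0.32 and -0.16 in eys-/-, lrp5-/- and the double heterozygote.

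The gene cnp encodes an enzyme of the inner cytoplasmic channels of mammalian myelin. Its signal was 6.77 in wildtype, 7.13 in lrp5-/-, 7.13 in the double heterozygote and 6.51 in eys-/-. As for mbpa, eys-/- was lowest, but lrp5-/- and the double heterozygote lay above wildtype, by 0.37 and 0.36. The gene enpp6, a marker of newly forming oligodendrocytes in mice, read 7.82 in wildtype, 7.53 in lrp5-/-, 7.61 in the double heterozygote and 7.71 in eys-/-. Of the peripheral myelin protein genes, pmp22b lay between 8.45 and 8.50 on the 4 arrays.

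Among enzymes that make the lipids of myelin, including cholesterol synthesis enzymes used by all cells, the largest differences lay above wildtype. Of 22 listed, 19 have a probe set. In eys-/- 1 of 14 measured was 2-fold higher, beside 0.326% of all measured genes, and 0 were lower, beside 0.307%. The 1 gene was the squalene epoxidase gene sqlea, which read 7.31 against 6.23 in wildtype, a log2 difference of 1.07. Its wildtype value lies below the level filter, so it counted as measured through the eys-/- array alone. The cholesterol synthesis genes hmgcs1, cyp51 and hmgcra differed by 0.80, 0.71 and 0.54 in eys-/-. By contrast, fdft1 and dhcr7, also of cholesterol synthesis, differed by -0.24 and -0.025. Of the 14 measured genes, 8 lay below wildtype in eys-/-, beside 52.8% of all measured genes. In the double heterozygote 0 of 13 passed 2-fold, and the largest difference was 0.87 for aspa, whose product releases acetate from N-acetylaspartate. In lrp5-/- 0 of 15 passed. The medians were -0.043 for eys-/-, 0.16 for lrp5-/- and 0.13 for the double heterozygote. The gene fa2h, whose product hydroxylates the fatty acids of myelin galactolipids, read 7.12 in wildtype and 7.28, 7.50 and 7.45 in eys-/-, lrp5-/- and the double heterozygote.

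Of 38 transcription factors and signalling genes of myelinating glia, 34 have a probe set. None of the 16 measured in eys-/-, the 15 in lrp5-/- or the 14 in the double heterozygote passed 2-fold. Of all measured genes, 0.326%, 0.393% and 1.23% were 2-fold higher there and 0.307%, 0.278% and 0.489% lower. The medians of the list were -0.12, -0.066 and -0.044. The gene myrf, a transcription factor that drives the expression of myelin genes in oligodendrocytes, read 8.79 in wildtype, 8.66 in lrp5-/-, 8.86 in the double heterozygote and 8.57 in eys-/-. Its difference from wildtype was -0.21 in eys-/-, about 1 robust SD, and 0.072 in the double heterozygote. The SoxE gene sox9b, a relative of sox10, differed by -0.46, -0.61 and -0.57 in eys-/-, lrp5-/- and the double heterozygote. It reached the level filter in wildtype alone, at 6.93. Its paralog sox9a differed by -0.27, 0.23 and 0.29 in the same comparisons. The receptor gene erbb3a differed by 0.64 in eys-/-, but reached the level filter on that array alone, at 6.63 against 5.99 in wildtype. Its paralog erbb3b, below the filter on every array, differed by -0.24 in eys-/-. The ligand gene nrg1 differed by 0.46 in eys-/-. The oligodendrocyte factor genes olig1 and nkx2.2a lay below the array median on every array, at 3.49 to 3.75 and 4.46 to 4.74, as 10 of the 34 did.

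Markers of the cells that myelin genes could come with were set beside these values; their part in the differences of mbpa and zwi was not tested. Of 17 Schwann cell markers other than the listed genes, 14 have a probe set and 5 reached the level filter. These 5 were pmp22b, gldn, ncam1a, ngfra and ngfrb. Their mean log2 signals were 8.21, 8.19, 8.13 and 8.13 in wildtype, eys-/-, lrp5-/- and the double heterozygote. The highest was ncam1a, between 10.38 and 10.49. The markers cdh19, erbb3b, foxd3, dhh and adgrg6 lay below the filter on every array. Whether the 5 are specific to Schwann cells in an eye was not tested, so their means do not measure Schwann cell content. The Schwann cell myelin factor gene egr2b lay below the array median on every array, between 4.17 and 4.34. None of the 5 passed 2-fold against wildtype, where at most 1.23% of all measured genes did in either direction. Of 23 genes of axons, nodes and paranodes, where myelin meets the axon, 18 have a probe set and 16 were measured, and 0 passed 2-fold in any mutant. Their mean log2 signals were 8.03, 8.03, 8.07 and 8.11 on the same arrays, and the paranodal gene cntnap1 differed from wildtype by 0.28 in eys-/-.

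Retinal ganglion cells send the axons that are myelinated in the optic nerve. Of 27 of their markers, 25 have a probe set and 17 reached the level filter, with mean log2 signals of 8.37, 8.33, 8.39 and 8.35 on the wildtype, eys-/-, lrp5-/- and double heterozygote arrays. None passed 2-fold in any mutant, beside at most 1.23% of all measured genes in either direction. The RNA-binding protein gene rbpms2a lay between 10.68 and 10.85. The transcription factor gene isl2b read 7.24 in wildtype, 7.16 in lrp5-/-, 7.01 in the double heterozygote and 6.79 in eys-/-, the same order as mbpa, with a difference of -0.45 in eys-/-. The order was also that of rbpms2b, and of 4.36% of all genes that reached the level filter, so nothing is read from it. The intermediate filament gene inab, by contrast, was above wildtype by 0.38, 0.31 and 0.33.

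Among 25 genes of Muller glia and optic nerve glia, 22 have a probe set and 17 were measured. Their means were 9.16, 9.15, 9.25 and 9.18 in wildtype, eys-/-, lrp5-/- and the double heterozygote. In any mutant 0 were past 2-fold, beside at most 1.23% of all measured genes in either direction. The filament gene vim read 10.29 in wildtype, 10.20 in lrp5-/-, 10.06 in the double heterozygote and 9.66 in eys-/-, again in the order of mbpa. That order was also found for kcnj10a and sox2, and for 4.36% of all genes that reached the level filter, so nothing is read from it. By contrast, glulb was lowest in wildtype, at 7.52, and read 8.01 in lrp5-/-, 8.33 in the double heterozygote and 8.04 in eys-/-. In eys-/- kcnj10a differed from wildtype by -0.52, but fabp7a and rlbp1b by 0.49 and 0.48. Of the 17 measured genes, 11 lay below wildtype in eys-/-, as did 11 in the double heterozygote, against 6 for lrp5-/-. In these comparisons 49.7% to 52.8% of all measured genes lay below wildtype. No shift of the list is read from counts this small. The optic stalk and optic nerve glia gene pax2a was below the level filter on all arrays, with 5.82 in wildtype, 6.12 in lrp5-/-, 5.63 in the double heterozygote and 5.27 in eys-/-. The glial filament gene gfap read 6.92, 7.21, 7.28 and 6.98 in the same order of arrays.

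Muscles that move the eye can remain on a dissected eye. Of 27 skeletal muscle genes, all have a probe set and 15 reached the level filter, with mean log2 signals of 7.99 in wildtype, 7.46 in lrp5-/-, 7.89 in the double heterozygote and 8.0 in eys-/-. Muscle genes differed from wildtype in both directions in eys-/-: the creatine kinase genes ckma and ckmb and the enolase gene eno3 by -0.60, -0.57 and -0.56, and the parvalbumin gene pvalb3 and the myosin light chain gene myl1 by 0.84 and 0.63. Of these, pvalb3 reached the level filter in eys-/- alone and ckmb in wildtype alone. In lrp5-/- 13 of 14 measured muscle genes lay below wildtype, with a median of -0.45. The median over all measured genes was -1e-04 there. Of all measured genes, 49.7% to 52.8% lay below wildtype in eys-/-, lrp5-/- and the double heterozygote. The myoglobin gene mb read 10.06 in wildtype, 8.90 in lrp5-/-, 9.13 in the double heterozygote and 9.0 in eys-/-, highest in wildtype as mbpa was. Against wildtype mb was the 1 measured muscle gene past 2-fold in eys-/- (-1.06) and in lrp5-/- (-1.16). There 0.307% and 0.278% of all measured genes were 2-fold lower. In the double heterozygote 0 measured muscle genes were past 2-fold. The creatine kinase gene ckma was also highest in wildtype, and differed by -0.70 in lrp5-/- and -0.68 in the double heterozygote. Of 18 pigment cell and neural crest genes, 15 have a probe set and 13 reached the filter. Their means were 7.97 in wildtype, 8.26 in lrp5-/-, 8.31 in the double heterozygote and 7.99 in eys-/-. Among these 13 genes, 1 was past 2-fold against wildtype, pnp4a of the purine pigment pathway, which was higher in the double heterozygote by 1.13. There 1.23% of all measured genes were 2-fold higher. Of 19 microglia and macrophage genes, 16 have a probe set and 6 reached the filter. Their means were 8.14 in wildtype, 8.05 in lrp5-/-, 8.34 in the double heterozygote and 8.01 in eys-/-. Against wildtype 0 were past 2-fold, beside at most 1.23% of all measured genes in either direction.

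**Figure D4:**
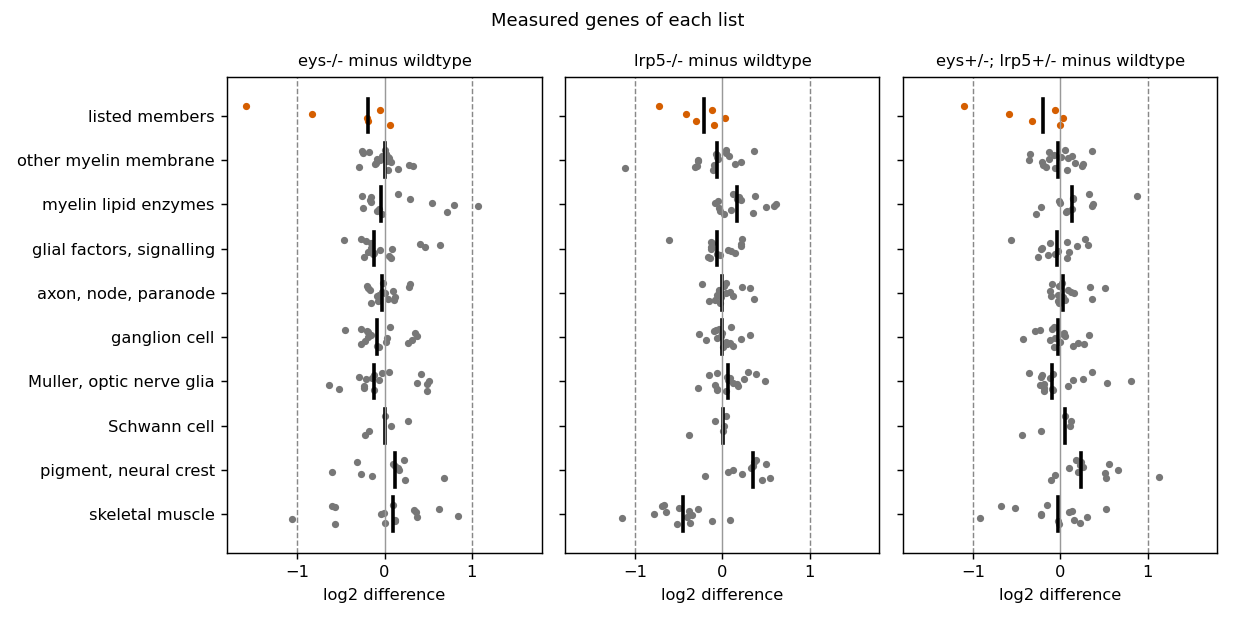
Log2 difference from wildtype (horizontal axis) of each measured gene of 10 gene lists (rows, 1 point per gene) in eys-/-, lrp5-/- and the double heterozygote, with a black bar at the list's median and dashed lines at 2-fold. The listed genes, in orange, have medians of -0.19, -0.21 and -0.20 and their 2 leftmost points are mbpa and zwi. The row named other myelin membrane has medians of 5e-04, -0.067 and -0.029, and the specificity of its genes to myelin was not tested.

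Genes that lie beside mbpa and zwi in the RefSeq gene order of assembly GRCz12tu were looked at after the values of mbpa and zwi had been seen. Of the 3 measured genes on each side of mbpa, the log2 differences from wildtype ran from -0.34 for znf516 to 0.18 for cndp2 in eys-/-, and from -0.37 for tshz1 to 0.098 for pleca in the double heterozygote. Around zwi they ran from -0.17 for fam117aa to 0.16 for ndufa4a in eys-/-, and from -0.38 for tlcd3ba to 0.24 for slc35b1 in the double heterozygote. In eys-/- none of these neighbours came near the differences of mbpa or zwi. In the double heterozygote the zwi neighbours tlcd3ba and nlk1 differed by -0.38 and -0.37, against -0.59 for zwi. In lrp5-/- the neighbours of mbpa ran from -0.29 for tshz1 to 0.066 for cndp2, against -0.73 for mbpa. Those of zwi ran there from -0.27 for nlk1 to 0.32 for slc35b1, against -0.42 for zwi. A link between the differences of neighbouring genes was not tested.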

How the data were processed

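The authors deposited 1 table of log2 signals, with 75212 probe sets and 4 arrays. Per the submitters' processing notes, the tools were RMA and Transcriptome Analysis Console 4.0; a genome build for the probe sets is not given there. RMA by definition equalises the distributions of the arrays, so a shift of most genes would be lost. That the deposited unit is log2 follows from the range of the values. Array annotation of 2013 gives 20806 probe sets with 1 gene symbol, 855 with several and leaves 53551 unnamed here. Each of 19260 genes was taken from the probe set that had the highest mean over the arrays. Symbols and gene order came from the RefSeq table of GRCz12tu.

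The genes described and the 11 other lists were chosen with earlier results of these data known. Genes on the main list were left out of the other lists. Named genes were all main members, the mutated genes, and, of each list, those that differed most or the defining markers, and the 5 closest genes to mbpa; neighbours on the chromosome were added later. No test was possible with 1 array per genotype, and precision is limited by the number of arrays. The calling rule was run on simulated data with normal noise and changes planted in genes well above the level filter. That run checked only that the rule was computed as stated. It says nothing of genes near the filter or of the noise of these arrays. Alternatives covered the probe set, the reference, the filter, the fold and 3 further normalizations. Python 3.11.15, numpy 2.4.6 and pandas 2.3.3 were used.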

Additional observations from a re-analysis of the deposited data

How the results depend on the processing

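With wildtype kept as reference, all 126 values of single listed genes under the other settings moved by less than their comparison's robust SD. These settings were the mean of all probe sets, 2 other filters on level and 3 further normalizations. Only the 3 normalizations could move a value. Each listed gene has 1 probe set, and a filter changes which genes count, not their differences. Centring on the median, 1 of the 3, shifts all genes of a comparison alike. Under these settings mbpa stayed between -1.59 and -1.56 in eys-/- and between -1.15 and -1.10 in the double heterozygote. Against the mean of the other 3 arrays, 0 of the 6 measured genes were 2-fold lower in eys-/- and 0 in the double heterozygote, where 1 was against wildtype; mbpa was then at -0.98, -0.33 and 0.17 and zwi at -0.49, -0.17 and 0.050 in eys-/-, the double heterozygote and lrp5-/-. By its construction this reference holds the other mutant arrays. At 1.5-fold in place of 2-fold the counts of lower genes were 2 in eys-/-, 2 in the double heterozygote and 1 in lrp5-/-. With wildtype as the reference, the medians of the listed genes kept their direction and stayed within 1.5 times, but against the mean of the other 3 arrays they were -0.10, -0.013 and -0.088 in eys-/-, lrp5-/- and the double heterozygote. The medians of the other lists were less stable: under alternatives added after seeing the data, 84 of 231 moved by over 1.5 times or changed sign. Of these, 21 changed sign, 11 of them against the mean of the other 3 arrays, 6 with no filter on level, 2 with the filter on both arrays and 2 after quantile normalization. No paired analysis was possible because each genotype has 1 array, and for the same reason no array could be left out. Signals near the level filter, such as those of sox10 and cldnk, and below it, such as that of olig2, are not shown to be above background.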
